A study of Mus musculus with 2 samples.

Results

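Tuft cells are rare, chemosensing cells of the intestinal epithelium. Here they were the cell barcodes selected on measured values: at least 1000 unique molecular identifiers (UMIs, counts of single transcripts), at least 300 genes, at most 50% mitochondrial UMIs, at least 1 UMI of the epithelial gene Epcam, at least 5 UMIs summed over Dclk1, Trpm5, Avil, Sh2d6 and Rgs13 with at least 2 of these genes detected, and fewer than 15 UMIs summed over the goblet genes Muc2, Fcgbp and Clca1. The rule gave 181 tuft cells among the 12652 barcodes of the series, 83 in the Tg library and 98 in the FMTg library. The small intestine of 1 mouse per genotype was dissociated and profiled with the 10x Genomics Chromium 3' protocol, which counts transcripts near their 3' end. The Tg mouse carried Mdm2+/- Cag-CreERTg and the FMTg mouse Mdm2FM/- Cag-CreERTg, so both carried 1 inactive Mdm2 allele and the same tamoxifen-inducible recombinase. Both were C57BL/6j animals of 60 days post-natal age, sampled at 24 h from a single tamoxifen dose of 6 mg per 40 g body weight. Per the series title, Mdm2 is lost and p53 acutely activated in FMTg intestine while Tg intestine retains Mdm2, and the comparison asks how tuft cells of the FMTg mouse differ from those of the Tg mouse. The Cag promoter is broadly active, so recombination was not aimed at tuft cells.

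Tuft cells carry an apical tuft of microvilli and sense luminal metabolites through G-protein-coupled receptors that signal through phospholipase C and the cation channel Trpm5. In response they secrete interleukin 25, leukotrienes, prostaglandins and acetylcholine, and thereby start the type 2 immune response to helminths and protists in the small intestine. Their formation depends on the POU-domain transcription factor Pou2f3. Mdm2 is the ubiquitin ligase that keeps the transcription factor p53 low, and Mdm2 is itself a p53 target gene.

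The 83 Tg tuft cells held 1543360 UMIs and the 98 FMTg tuft cells 2156038. The median depth was 18158 UMIs and 3954 genes per Tg tuft cell (1022 to 47880 UMIs) and 19513 UMIs and 3979 genes per FMTg tuft cell (4447 to 89077 UMIs), with median mitochondrial shares of 15.1% and 15.6%. Other Epcam-positive barcodes without a UMI of the 5 markers numbered 2585 in Tg and 2897 in FMTg, with median depths of 6024 and 6735 UMIs. The libraries shared 14 barcode sequences, and 0 of these were tuft cells of both. Each genotype was 1 library, so no difference between genotypes has a replicate check, no test was possible, and genotype, animal and library cannot be told apart. Levels below are UMIs per 1000000 UMIs of all tuft cells of a library (CPM), and differences are log2 ratios of CPM, FMTg over Tg. Counting error alone is covered by the intervals, all drawn at 95%. The word higher or lower states which value was larger, and a gene was counted as higher or lower when it differed by at least 1.5-fold.

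Tuft cells made up 2.87% of the 2892 Epcam-positive Tg barcodes (Clopper-Pearson interval 2.29% to 3.55%) and 2.88% of the 3408 Epcam-positive FMTg barcodes (2.34% to 3.49%). Each share lay inside the other's counting interval. Under other limits the order was not stable: the shares were 5.37% in Tg and 3.85% in FMTg without barcodes holding leukocyte RNA, and 3.52% and 5.91% with a mitochondrial limit of 25%. The rule cut few barcodes near its limits: 2 tuft cells in each library had a marker sum of 5 to 7 UMIs, and 0 Tg and 3 FMTg barcodes just outside had 3 or 4. Of the barcodes with enough marker UMIs, 11 Tg and 4 FMTg barcodes were left out for mitochondrial share, 3 and 1 for lack of Epcam, and 2 and 1 for goblet UMIs. The members held 90.2% of all UMIs of the 5 markers in the Tg library and 92.0% in the FMTg library.

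The 5 genes that chose the cells are given as a description. Dclk1, a microtubule-associated kinase, stood at 1220.1 CPM in Tg and 1090.0 CPM in FMTg. Trpm5, the calcium-activated channel of taste and tuft cells, stood at 857 CPM in Tg and 739 CPM in FMTg. Avil, the actin-binding protein advillin, stood at 1076 CPM in Tg and 924 CPM in FMTg. Sh2d6, an SH2-domain adaptor, stood at 2055 CPM in Tg and 1569 CPM in FMTg, and Rgs13, a regulator of G-protein signalling, at 2061 CPM in Tg and 1414 CPM in FMTg. All 5 were detected together in 79 of 83 Tg cells and 92 of 98 FMTg cells, and a typical cell held many molecules of them, the median marker sum being 143 in Tg, between 6 and 290, and 134 in FMTg, between 5 and 216.

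For the sum over all members, the tuft label held for genes that the rule did not use. The comparison of members chosen by expression with the remaining barcodes is a description and no test. Over a list of 46 further tuft genes, 45 had at least 20 UMIs in tuft cells, and 43 of these 45 stood at least 4-fold higher than in other Epcam-positive barcodes of both libraries, a size met by 7.76% of the 8801 genes compared. The exceptions were Ptprc, described below, and Espn, an actin-bundling protein of microvilli. The transcription factor Pou2f3 stood at 128 and 94.2 CPM in Tg and FMTg tuft cells and at 0.0974 and 0.171 CPM in the others. The factor Gfi1b stood at 52.5 and 50.1 CPM against 0.13 and 0.0684 CPM. Chat, the enzyme that makes acetylcholine, stood at 88.1 and 77.5 CPM with 1 and 1 UMIs in the other barcodes, a ratio of 2713-fold (95% interval 479 to 107940) in Tg and 2265-fold (401 to 89976) in FMTg. The cytokine Il25 stood at 31.1 and 35.2 CPM, with 2 and 0 UMIs in the other barcodes. All 4 genes were close to 0 in the other epithelial barcodes of both libraries.

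The list by role gave 9 of 11 measured regulators, 11 of 15 chemosensing genes, 7 of 9 eicosanoid genes, 18 of 20 signalling adaptors and 9 of 11 surface genes at 4-fold or more. Among abundant tuft genes, Cd24a, a cell surface sialoglycoprotein, stood at 5591 and 5638 CPM against 30.01 and 24.7 CPM. Lrmp, an endoplasmic reticulum membrane protein, stood at 2609 and 1649.8 CPM against 34.9 and 20.3 CPM. Alox5ap, which presents arachidonic acid to 5-lipoxygenase, stood at 1502 and 1275 CPM against 45.3 and 4.69 CPM. Krt18, a simple-epithelium keratin, reached 14872 and 12485 CPM, against 198 and 170.0 CPM.

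The 20 genes with the highest ratio to other Epcam-positive barcodes, outside the 5 rule genes and taking the lower ratio of the 2 libraries, were Hmx2, Tmem229a, Chat, Rgs22, Folr1, Hmx3, Strip2, Bmx, Sh2d7, Siglecf, Smpx, Atp2b2, Kirrel3, Pate4, Nrgn, Gng13, Ffar3, Sptb, Ccdc129 and Gm47926. Hmx2, a homeobox factor, led with 8897-fold (95% interval 1589 to 352205) in Tg and 3119-fold (859 to 25831) in FMTg, resting on 1 and 2 UMIs in the other barcodes. Nrgn, a calmodulin-binding protein best known from neurons, had the highest level among them at 2084 and 1553 CPM against 2.08 and 1.33 CPM. Siglecf, a sialic-acid-binding lectin also found on eosinophils, stood at 658 and 467 CPM against 0.487 and 0.376 CPM. Bmx, a Tec-family kinase, stood at 481 and 404 CPM against 0.26 and 0.308 CPM. Ffar3, a receptor for short-chain fatty acids, stood at 272 and 235 CPM against 0.292 and 0.274 CPM. Folr1, a folate receptor, stood at 226 and 207 CPM against 0.162 and 0.0684 CPM.

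**Figure D1:**
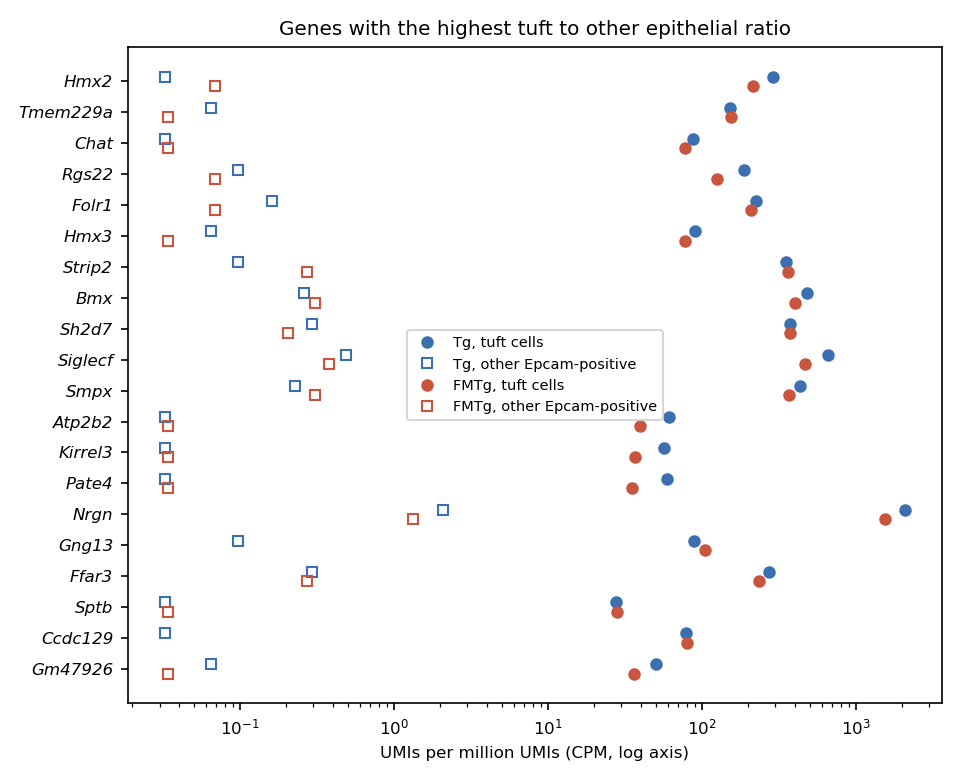
Level in CPM (log axis) of the 20 genes with the highest tuft to other ratio, in tuft cells (filled circles) and other Epcam-positive barcodes (open squares) of the Tg (blue) and FMTg (red) libraries; a class with 0 UMIs has no square. Tuft levels ran from 27.9 CPM for Sptb to 2084 CPM for Nrgn in Tg, and the highest open square was Nrgn in Tg at 2.08 CPM.

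Genes best known from other cells were also part of the profile. Lgr5, the receptor that marks crypt base stem cells, had UMIs in 42 of 83 Tg and 42 of 98 FMTg cells and stood at 41.5 CPM in Tg and 37.1 CPM in FMTg, against 0.227 and 0.718 CPM in the other Epcam-positive barcodes. There, 0.116% of Tg and 0.242% of FMTg barcodes held an Lgr5 UMI, at the lower depth given above. Sct, the hormone secretin, had UMIs in 74 of 83 Tg and 93 of 98 FMTg cells and stood at 660.2 CPM in Tg and 466 CPM in FMTg, against 124 and 295 CPM. The progenitor factor Sox9 stood at 484 CPM in Tg and 545 CPM in FMTg, against 1.95 and 5.4 CPM. With each cell thinned to 1000 UMIs, Sox9 was seen in 39.8% of Tg and 35.7% of FMTg tuft cells and in 0% and 0.6% of 500 other barcodes per library. The leukocyte phosphatase Ptprc (CD45) had UMIs in 72 of 83 Tg and 88 of 98 FMTg cells and stood at 263 CPM in Tg and 173 CPM in FMTg, but the other Epcam-positive barcodes, which include barcodes with leukocyte RNA, had 212 and 163 CPM.

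The octamer ATGCAAAT, the element that POU factors such as Pou2f3 bind, was searched on both strands (ATTTGCAT in reverse) of RefSeq promoters of build GRCm38.p6, which run from 250 bases before to 50 after each gene start. Of the 129 genes of the tuft lists, 103 had a promoter in that table, and 11 of these (10.7%) held an octamer, against 1.97% of all 27025 genes. Among tuft-list genes at least 4-fold higher in tuft cells, 62 had a promoter and 5 held it (8.06%, interval 2.67% to 17.8%). The other tuft-list holders, Il1rl1, Il33, Il4ra, Itpr3, Mef2b and Rgs21, were not among the genes at least 4-fold higher. Of all genes at least 4-fold higher in tuft cells, 14 of 495 (2.83%) held it, and of the measured genes below 4-fold 99 of 6478 (1.53%). Of the 20 genes with the highest ratios, 14 had a promoter and 0 held it. The 5 tuft-list genes that were at least 4-fold higher in tuft cells and hold the octamer were Hpgds, Kctd12, Ly6g6d, Nradd and Sucnr1. Their windows are shown because they are the tuft-list promoters where the motif and the tuft level occur together. They run 5' to 3' on the strand of the gene, with the octamer in capitals. Ly6g6d holds 2 octamers. The one nearer the start is in capitals, and the other stands in lower case in the same window.
Hpgds (chr6:65144867-65144934, - strand): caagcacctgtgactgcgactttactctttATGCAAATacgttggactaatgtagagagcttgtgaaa
Kctd12 (chr14:102982760-102982827, - strand): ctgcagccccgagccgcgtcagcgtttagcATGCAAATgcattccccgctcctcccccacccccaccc
Ly6g6d (chr17:35081230-35081297, - strand): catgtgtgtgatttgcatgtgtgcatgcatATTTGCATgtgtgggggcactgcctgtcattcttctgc
Nradd (chr9:110624558-110624625, - strand): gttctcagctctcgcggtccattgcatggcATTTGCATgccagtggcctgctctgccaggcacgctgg
Sucnr1 (chr3:60081791-60081858, + strand): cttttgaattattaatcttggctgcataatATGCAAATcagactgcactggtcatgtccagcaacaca
A match in these windows is a description of the sequence and says nothing about binding. Hpgds, the hematopoietic prostaglandin D synthase, stood at 196 and 144 CPM in tuft cells against 8.02 and 6.02 CPM. Kctd12, an auxiliary subunit of GABA-B receptors, stood at 1724 and 1722 CPM against 16.6 and 8.93 CPM. Sucnr1, the receptor for the microbial and protist metabolite succinate, stood at 143 and 83.5 CPM against 0.227 and 0.0342 CPM.

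The barcodes that the rule chose differed among themselves in the share of tuft RNA that they held. The 46 tuft genes outside the rule took 37.0 to 633 UMIs per 10000 in Tg cells with a median of 394, and 5.59 to 550.5 in FMTg cells with a median of 368. In 5 Tg and 15 FMTg cells the value was below 150 per 10000, and these cells held 7.02% of the Tg and 22.0% of the FMTg tuft UMIs. Their marker UMIs were also low, with medians of 17.0 and 16.5 per 10000 against 79.2 and 74.5 in the other members. Enterocyte markers took a median of 390.2 and 519 UMIs per 10000 in them, against 141 and 157 in the other members. One FMTg barcode of 19687 UMIs held 11 UMIs of the 46 tuft genes and 2447 of the enterocyte markers. Another, of 5482 UMIs, held 257 UMIs of T cell markers. Whether the barcodes below 150 per 10000 are tuft cells or are mixed with other cells was not tested. A library sum over all members therefore contains more of such barcodes in FMTg than in Tg, and the ratios of single genes below are mostly followed by the ratio in the 78 Tg and 83 FMTg cells at or above 150 per 10000, called the second set and chosen after the data had been seen; for sparse genes it rests on under 20 UMIs. Over all genes measured in it, 9.95% were higher and 9.3% lower, against 11.8% and 8.82% over all members.

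Chemosensory and effector genes were detected in part of the cells. Gnat3, the taste G protein gustducin, had UMIs in 14 of 83 Tg and 27 of 98 FMTg cells. Its partner Gng13 had UMIs in 34 of 83 Tg and 57 of 98 FMTg cells, and in FMTg 15 of the 27 Gnat3-positive cells (55.6%) and 42 of the 71 others (59.2%) held Gng13; in Tg these were 7 of 14 (50%) and 27 of 69 (39.1%). Il25 had UMIs in 31 of 83 Tg and 42 of 98 FMTg cells. Il25 was seen in 8 of 14 Gnat3-positive Tg cells (57.1%) and 23 of 69 others (33.3%), but in 8 of 27 (29.6%) and 34 of 71 (47.9%) in FMTg, so no order common to the libraries was seen. Ptprc, a marker of the immune-like tuft subset described in mouse, and Gng13, one of the neuronal-like subset, were both found in many cells. Ptprc was present in 26 of 27 FMTg and 13 of 14 Tg cells with Gnat3, and in 62 of 71 (87.3%) and 59 of 69 (85.5%) of those without. These are 3 of 8 gene pairs that were counted, all chosen after the data had been seen.

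p53 target genes as a group stood higher in FMTg tuft cells. Of 47 targets with at least 20 UMIs among 58 in the files, 22 were at least 1.5-fold higher and 2 lower, where 11.8% and 8.82% of all 8803 measured genes were higher and lower. The median log2 ratio over the 47 was 0.54, against -0.03 over all measured genes. In the members with a high tuft gene share, 11 of 42 measured targets were higher and 2 lower (9.95% and 9.3% of all genes), with a median of 0.29. The list median lay above that of all genes in both sets, and fewer targets passed 1.5-fold in the second. The low tuft gene share of some barcodes moves with this result, and its part was not tested. In the other Epcam-positive barcodes as a whole the median was 0.47 with 22 of 54 targets higher (9.68% of all genes higher there and 14.2% lower). Those free of Ptprc and leukocyte marker UMIs had a p53 target median of 0.54 over 53 genes, with 22 higher (15.8% of all genes in that class, with 11.3% lower).

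Mdm2 itself had 134 UMIs (86.8 CPM) in Tg and 295 UMIs (137 CPM) in FMTg, a log2 ratio of 0.66 (95% interval 0.36 to 0.96, second set 0.42). This level does not check the genotype, since the counted 3' end may lie outside the deleted segment and p53 raises Mdm2. Mdm2 was detected in 53 of 83 Tg and 84 of 98 FMTg cells, and with cells thinned to 1000 UMIs in 3 of 83 Tg (3.61%) and 15 of 98 FMTg cells (15.3%). Thinned to 2000 UMIs, the shares lay closer, at 12 of 79 Tg (15.2%, interval 8.1% to 25.03%) and 17 of 98 FMTg cells (17.3%, 10.4% to 26.3%), and these intervals overlapped. B cells thinned to 1000 UMIs held Mdm2 in 4.57% and 5.2% of barcodes. Trp53, the gene of p53 itself, had 20 UMIs (13.0 CPM) in Tg and 23 UMIs (10.7 CPM) in FMTg, a ratio of -0.28 (95% interval -1.21 to 0.66, second set -0.51). Its interval held 0, so no difference was detectable at this depth.

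The cell cycle inhibitor gene Cdkn1a (p21), a direct p53 target, had 1122 UMIs (727 CPM) in Tg and 2069 UMIs (959.6 CPM) in FMTg, a log2 ratio of 0.40 (95% interval 0.30 to 0.51, second set 0.35). After thinning to 1000 UMIs, Cdkn1a was seen in 36 of 83 Tg cells (43.4%, interval 32.5% to 54.7%) and 62 of 98 FMTg cells (63.3%, 52.9% to 72.8%). At 2000 UMIs the shares were 65.8% and 79.6%. Thinning to 1000 UMIs gave 18.2% and 37.0% of other Epcam-positive barcodes, and 4.33% and 5.2% of B cells, so tuft cells held Cdkn1a above that background in both libraries. Unthinned, 80 of 83 Tg and 97 of 98 FMTg cells held a Cdkn1a UMI.

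The plot of p53 target ratios shows all 47 measured genes. In the text, the targets with most UMIs and the largest ratios are named by rule, whereas Psrc1, Gadd45a, Pmaip1, Bbc3, Fas, Trp53inp1, Phlda3, Zmat3 and Mdm4 were chosen after their values had been seen. Among cell cycle genes, Ccng1 (cyclin G1) had 341 UMIs (221 CPM) in Tg and 792 UMIs (367 CPM) in FMTg, a ratio of 0.73 (95% interval 0.55 to 0.92, second set 0.60). Psrc1, a spindle protein, had 26 and 88 UMIs in Tg and FMTg and a ratio of 1.28 (95% interval 0.63 to 1.97, second set 1.07). Btg2, an antiproliferative gene, had 355 and 549 UMIs and a ratio of 0.15 (95% interval -0.05 to 0.34, second set 0.06), below 1.5-fold. Plk2, a polo-like kinase, had 282 and 364 UMIs and -0.11 (95% interval -0.34 to 0.12, second set -0.01). Gadd45a, a damage-response gene, had 203 and 292 UMIs and 0.04 (95% interval -0.22 to 0.31, second set 0.15). The intervals of Btg2, Plk2 and Gadd45a held 0.

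Among death genes, Bax had 555 UMIs (359.6 CPM) in Tg and 927 UMIs (430.0 CPM) in FMTg, a ratio of 0.26 (95% interval 0.10 to 0.41, second set 0.22). Pmaip1 (Noxa) had 36 and 88 UMIs and 0.81 (95% interval 0.23 to 1.41, second set 0.29), and Bbc3 (Puma) 19 and 39 UMIs and 0.56 (95% interval -0.27 to 1.43, second set 0.48). In the second set Pmaip1 was below 1.5-fold and its interval, -0.42 to 1.01, held 0. The receptor gene Fas had 21 and 65 UMIs and 1.15 (95% interval 0.42 to 1.93, second set 0.82), and Eda2r, a receptor of the same superfamily, 6 and 37 UMIs and 2.14 (95% interval 0.89 to 3.68, second set 1.71). The interval of Fas in the second set was -0.11 to 1.81 and held 0. Eda2r was detected in 4 of 83 Tg and 23 of 98 FMTg cells. Perp, a membrane protein of the p53 programme, had 218 and 339 UMIs and 0.15 (95% interval -0.10 to 0.41, second set -0.01). Outside the p53 list, 4 of 19 measured apoptosis genes were higher and 0 lower (11.8% and 8.82% of all measured genes) with a median of -0.03, and in the second set 4 of 19 were higher and 1 lower (9.95% and 9.3%), with a median of -0.13. Bok, a Bax relative, had 6 and 46 UMIs and 2.46 (95% interval 1.23 to 3.97, second set 2.68), and Xiap, a caspase inhibitor, 83 and 198 UMIs and 0.77 (95% interval 0.40 to 1.16, second set 0.69).

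Stress and feedback targets followed. Trp53inp1 had 62 and 168 UMIs and a ratio of 0.96 (95% interval 0.53 to 1.40, second set 0.78), Phlda3, an Akt inhibitor, 73 and 182 UMIs and 0.84 (95% interval 0.44 to 1.25, second set 0.67), and Zmat3, an RNA-binding protein, 55 and 130 UMIs and 0.76 (95% interval 0.29 to 1.24, second set 0.45). Mdm4, the Mdm2 relative that also restrains p53, had 141 and 286 UMIs and 0.54 (95% interval 0.24 to 0.84, second set 0.21). In the second set the intervals of Zmat3, -0.06 to 0.98, and Mdm4, -0.12 to 0.54, held 0, and both ratios were below 1.5-fold. Gdf15, a secreted stress cytokine, had 18 and 68 UMIs and 1.44 (95% interval 0.67 to 2.27, second set 0.99). Rps27l, a ribosomal protein paralog whose reads could be confused with those of Rps27, had 1135 and 1974 UMIs and 0.32 (95% interval 0.21 to 0.42, second set 0.22). Ephx1, an epoxide hydrolase, had 5 and 35 UMIs and 2.33 (95% interval 0.97 to 4.03, second set 0.91), and its second set interval, -0.73 to 2.78, held 0. Gpx1, a glutathione peroxidase, was lower with 380 and 346 UMIs and -0.62 (95% interval -0.83 to -0.40, second set -0.64), and Fdxr, the mitochondrial ferredoxin reductase, was the other target at least 1.5-fold lower, with 14 and 10 UMIs and -0.97 (95% interval -2.30 to 0.31, second set -0.87).

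Some of the largest ratios of the list rested on few cells. Ckap2, a mitotic spindle gene, had 1 and 25 UMIs, of which 22 lay in 1 FMTg cell. Kitl, the Kit ligand, had 7 and 29 UMIs with 13 in 1 cell, and its ratio went from 1.57 to -0.23 in the members with a high tuft gene share. One FMTg cell of 77405 UMIs, with 97 marker UMIs but 55.3 tuft gene UMIs per 10000, alone held 929 of the 11184 FMTg UMIs of the list (8.31%) and 757 of the 4622 FMTg UMIs of the G2/M list. Slc19a2, a thiamine transporter, had 5 and 19 UMIs and 1.44 (95% interval -0.03 to 3.22, second set 1.47).

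**Figure D2:**
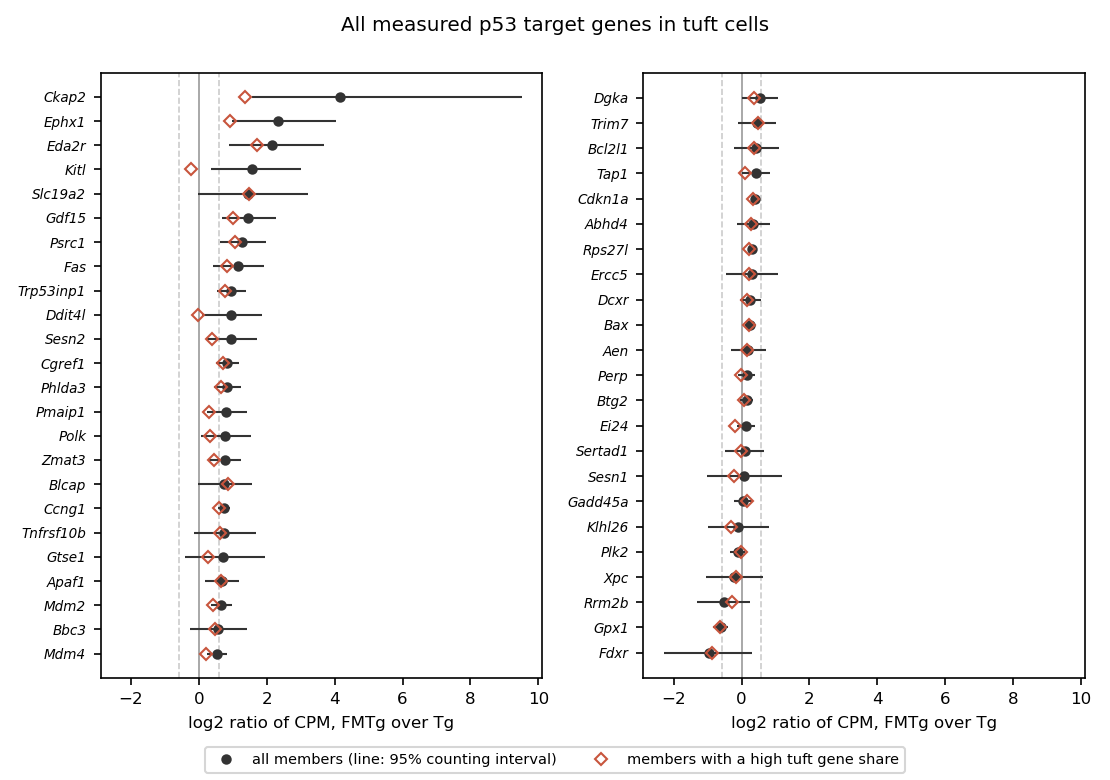
Log2 ratio of CPM, FMTg over Tg, of all 47 measured p53 target genes in tuft cells, ordered by ratio; black points are all members with the 95% counting interval as a line, red diamonds the members with a high tuft gene share, dashed lines 1.5-fold. Mdm2 lay at 0.66 and Ccng1 at 0.73 over all members, Gpx1 at -0.62 and Ckap2 highest at 4.16, with 22 of its 25 FMTg UMIs in 1 cell.

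Cell by cell, the libraries overlapped widely. The p53 list took a median of 36.2 UMIs per 10000 in Tg tuft cells (13.9 to 89.1) and 46.6 in FMTg tuft cells (17.4 to 131). Of the 98 FMTg cells, 74 lay above the Tg median, and 30 of the 83 Tg cells lay above the FMTg median. In the members with a high tuft gene share the medians were 37.9 and 46.2. For Ccng1, 79 of 98 FMTg cells lay above the Tg median, for Mdm2 71 and for Cdkn1a 66. Above the highest Tg cell lay 3 FMTg cells. In the cells with a low tuft gene share the medians were 26.3 in the 5 Tg cells and 52.3 in the 15 FMTg cells.

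**Figure D3:**
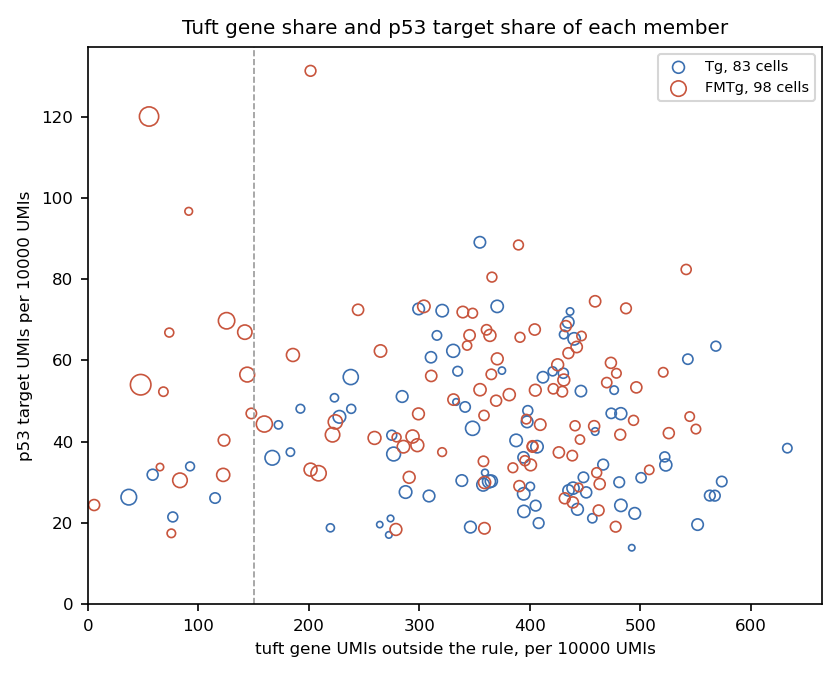
Each circle is 1 tuft cell (Tg blue, FMTg red, circle size by UMIs): x axis, UMIs of 46 tuft genes outside the rule per 10000; y axis, UMIs of the p53 target list per 10000; dashed line at 150. Left of the line lie 5 Tg and 15 FMTg cells, and both libraries overlap right of it, with medians of 37.9 and 46.2.

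Genes of tuft identity stood slightly lower in FMTg tuft cells when all members were summed, and nearly level in the members with a high tuft gene share. Over the 45 measured tuft genes outside the rule the median log2 ratio was -0.25, with 1 higher and 3 lower (11.8% and 8.82% of all measured genes). In the second set it was -0.07 with 1 higher and 0 lower (9.95% and 9.3%). That set was chosen by the share of these same genes, so its values for them are not independent of the choice and are a description only. The 5 rule genes ranged from -0.16 for Dclk1 to -0.54 for Rgs13, and in the second set from 0.01 to -0.38. These sums move with the share of tuft RNA in each barcode, which was described above, and its part in the result was not tested.

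Of the regulators, 0 of 11 were higher and 1 lower (11.8% and 8.82% of all measured genes), with a median of -0.18. Pou2f3 had 198 UMIs (128 CPM) in Tg and 203 UMIs (94.2 CPM) in FMTg, a ratio of -0.45 (95% interval -0.74 to -0.16, second set -0.30). Hmx2 had 446 and 460 UMIs and -0.44 (95% interval -0.63 to -0.25, second set -0.27). Spib, an Ets factor, had 701 and 970 UMIs and -0.01 (95% interval -0.16 to 0.13, second set 0.17), and Gfi1b 81 and 108 UMIs and -0.07 (95% interval -0.50 to 0.37, second set 0.09). Sox9 had 747 and 1174 UMIs and 0.17 (95% interval 0.04 to 0.30, second set 0.33). The lower regulator was Sox4, a progenitor factor, with 59 and 52 UMIs and -0.66 (95% interval -1.23 to -0.10, second set -0.79). Apart from Sox4 the factors of tuft fate differed by less than 1.5-fold.

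Of the chemosensing genes, 1 of 15 was higher and 5 lower (11.8% and 8.82% of all measured genes), and in the second set 1 was higher and 2 lower (9.95% and 9.3%). Plcb2, Pde6d and Sucnr1 differed by less than 1.5-fold there. The receptor Sucnr1 had 220 UMIs (143 CPM) in Tg and 180 UMIs (83.5 CPM) in FMTg, a ratio of -0.77 (95% interval -1.06 to -0.48, second set -0.57). Vmn2r26, a vomeronasal receptor that in mouse tuft cells senses a bacterial metabolite, had 42 UMIs (27.2 CPM) in Tg and 22 UMIs (10.2 CPM) in FMTg, a ratio of -1.42 (95% interval -2.23 to -0.64, second set -1.34); it was detected in 25 of 83 Tg and 14 of 98 FMTg cells. Kcnj16, an inward-rectifying potassium channel, had 59 and 38 UMIs and -1.12 (95% interval -1.74 to -0.50, second set -0.96). Plcb2, the phospholipase of the taste pathway, had 131 and 118 UMIs and -0.63 (95% interval -1.0 to -0.26, second set -0.49), and Pde6d 65 and 60 UMIs and -0.60 (95% interval -1.13 to -0.07, second set -0.45). Gnat3 was the higher gene, with 29 and 65 UMIs and 0.68 (95% interval 0.03 to 1.37, second set 0.89). Ffar3 had 420 and 506 UMIs and -0.21 (95% interval -0.40 to -0.02, second set -0.04), and Gng13 137 and 227 UMIs and 0.25 (95% interval -0.07 to 0.56, second set 0.44). The counting intervals of Sucnr1 and Vmn2r26 lay below 0 in both sets, and that of Ffar3 held 0 in the second.

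Enzymes of leukotriene and prostaglandin synthesis had a list median of -0.36 and -0.19 in the second set. Alox5 (5-lipoxygenase) had 699 UMIs (453 CPM) in Tg and 761 UMIs (353 CPM) in FMTg, a ratio of -0.36 (95% interval -0.51 to -0.21, second set -0.19). Its partner Alox5ap had 2318 and 2748 UMIs and -0.24 (95% interval -0.32 to -0.16, second set -0.05), and Ltc4s, which makes leukotriene C4, 1530 and 1559 UMIs and -0.46 (95% interval -0.56 to -0.35, second set -0.30). Ptgs1 (cyclooxygenase 1) had 827 and 891 UMIs and -0.37 (95% interval -0.51 to -0.24, second set -0.20), and Hpgds 303 and 311 UMIs and -0.44 (95% interval -0.68 to -0.21, second set -0.30). Each of these 5 was detected in at least 73 of 83 Tg and 90 of 98 FMTg cells, and none differed by 1.5-fold. Ptgs2 (cyclooxygenase 2) was sparse and lower with 15 and 12 UMIs and -0.80 (95% interval -2.03 to 0.39, second set -0.55), an interval that held 0, while the prostaglandin E2 receptor gene Ptger4 had 3 and 34 UMIs, a ratio of 3.02 (95% interval 1.35 to 5.37, second set 2.58), with FMTg UMIs in 16 of 98 cells.

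In the type 2 cytokine circuit, Il25 had 48 UMIs (31.1 CPM) in Tg and 76 UMIs (35.2 CPM) in FMTg, a ratio of 0.18 (95% interval -0.36 to 0.73, second set 0.38), so no difference was detectable at this depth. Its receptor subunit Il17rb, which tuft cells also express, had 229 and 249 UMIs and -0.36 (95% interval -0.63 to -0.10, second set -0.20). The receptor gene for interleukin 4 and 13, Il4ra, had 44 UMIs (28.5 CPM) in Tg and 100 UMIs (46.4 CPM) in FMTg, a ratio of 0.70 (95% interval 0.18 to 1.25, second set 0.81), and its ratio in other Epcam-positive barcodes was 0.78. Its partner Il13ra1 had 317 and 383 UMIs and -0.21 (95% interval -0.43 to 0.01, second set -0.11). Chat had 136 and 167 UMIs and -0.19 (95% interval -0.52 to 0.15, second set -0.05), and Slc44a4, a choline transporter family member, 131 and 148 UMIs and -0.31 (95% interval -0.66 to 0.04, second set -0.38).

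Immune-type signalling genes had 0 of 20 higher and 1 lower (11.8% and 8.82% of all measured genes), with a median of -0.23 and -0.04 in the second set. The lower gene was Lrmp, with 4027 UMIs (2609 CPM) in Tg and 3557 UMIs (1649.8 CPM) in FMTg, a ratio of -0.66 (95% interval -0.73 to -0.60, second set -0.49). Bmx had 743 and 871 UMIs and -0.25 (95% interval -0.40 to -0.11, second set -0.09), and Sh2d7 577 and 803 UMIs and -0.01 (95% interval -0.16 to 0.15, second set 0.18). At the surface, Cd24a had 8629 and 12155 UMIs and 0.01 (95% interval -0.03 to 0.05, second set 0.19), Siglecf 1015 and 1007 UMIs and -0.49 (95% interval -0.62 to -0.37, second set -0.29), and Ptprc 406 and 372 UMIs and -0.61 (95% interval -0.82 to -0.40, second set -0.43). Cytoskeletal genes had a median of -0.12 over 19, with Vil1 (villin) at -0.05 (second set 0.01) and Krt18 at -0.25 (-0.06). Kctd12, the auxiliary subunit of GABA-B receptors, stood at 0.00 (0.17). The lists described as immune-like and neuronal-like tuft subsets had medians of -0.29 over 10 genes and -0.35 over 5.

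**Figure D4:**
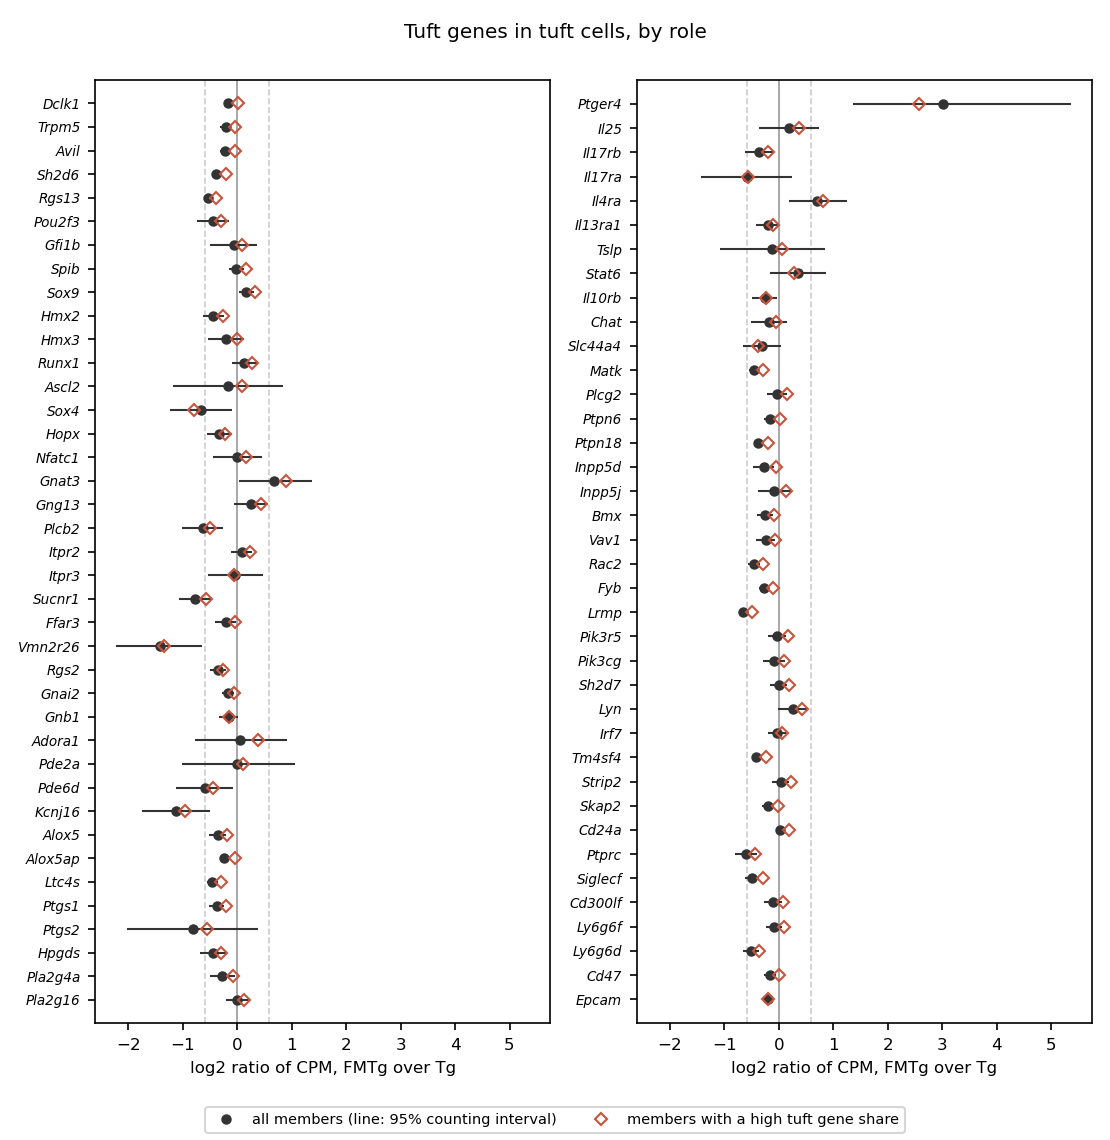
Log2 ratio of CPM, FMTg over Tg, of 77 measured genes of 8 tuft lists in tuft cells, ordered by role from the rule genes to surface genes; black points are all members with the 95% counting interval as a line, red diamonds the members with a high tuft gene share, dashed lines 1.5-fold. Vmn2r26 at -1.42 and Kcnj16 at -1.12 lay lowest and Ptger4 at 3.02 highest.

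Genes of MHC class II antigen presentation stood higher in FMTg tuft cells, with 5 of 6 measured genes higher, 0 lower and a median of 1.75 (11.8% and 8.82% of all measured genes). Cd74, the invariant chain, had 125 UMIs (81.0 CPM) in Tg and 904 UMIs (419 CPM) in FMTg, a ratio of 2.37 (95% interval 2.10 to 2.65, second set 1.72). H2-Aa had 21 UMIs (13.6 CPM) in Tg and 211 UMIs (97.9 CPM) in FMTg, a ratio of 2.85 (95% interval 2.20 to 3.57, second set 2.56), and was detected in 11 of 83 Tg and 31 of 98 FMTg cells. H2-Ab1 had 48 and 233 UMIs and 1.8 (95% interval 1.34 to 2.28, second set 1.51), and H2-Eb1 29 and 132 UMIs and 1.70 (95% interval 1.12 to 2.34, second set 0.29). In the second set H2-Eb1 had 21 and 30 UMIs, and its interval of -0.57 to 1.16 held 0. Levels were below those of the other Epcam-positive barcodes, which held 1207 and 1302 CPM of Cd74. The list UMIs lay in few cells: 7 Tg and 25 FMTg tuft cells held 10 or more, and the highest FMTg cell held 292 of 1535 (19.0%). The median share of the list was 0.43 and 0.49 UMIs per 10000 in cells with a high tuft gene share, and 6.68 and 19.8 in the 5 and 15 cells with a low one. In the members with a high tuft gene share the list median was 1.61, over 4 genes, of which 3 were higher and 0 lower (9.95% and 9.3% of all genes).

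RNA of T and B cells was also higher in FMTg tuft cells, while that of macrophages and neutrophils was lower. The 11 T cell markers, all detected in both libraries, summed to 373 UMIs in Tg and 1818 in FMTg, from 0 to 14376 CPM per Tg cell and 0 to 46881 per FMTg cell, and 1 Tg and 5 FMTg cells held 10 or more UMIs. B cell and plasma cell markers summed to 57 UMIs in Tg and 243 in FMTg. Macrophage and neutrophil markers went the other way, with 331 UMIs in Tg, 161 of them in 1 cell, and 17 in FMTg. Without the 5 Tg and 10 FMTg cells that held at least 2 UMIs of 6 leukocyte genes, the T cell marker median went from 1.79 to -0.83, while the MHC class II median was 1.57 and the p53 target median 0.60. With equal weight per cell the MHC class II median was 1.08. In the other Epcam-positive barcodes the MHC class II median was -0.05, and 0.22 in those free of leukocyte RNA. The difference between the classes was not tested.

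Interferon-response genes had no common direction in tuft cells, with 6 of 32 measured genes higher, 2 lower (11.8% and 8.82% of all measured genes) and a median of 0.09, while in the second set 7 of 32 were higher and 2 lower (9.95% and 9.3%), with a median of 0.12. The median was 0.51 in the epithelial barcodes free of leukocyte RNA. Irf7, the interferon regulatory factor that tuft cells hold at 353 CPM in Tg and 345 CPM in FMTg, had a ratio of -0.03 (95% interval -0.19 to 0.13, second set 0.05), whereas it was 0.87 in those other barcodes; the difference was not tested. Ifi27l2b had 640 and 1354 UMIs and 0.60 (95% interval 0.46 to 0.74, second set 0.68), and Ifit1bl2 59 and 151 UMIs and 0.87 (95% interval 0.43 to 1.33, second set 1.08). Ifit3 had 6 and 33 UMIs with 22 of the 33 FMTg UMIs in 1 cell.

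Of the heat shock genes, Hspa1a, an inducible Hsp70, had 161 UMIs (104 CPM) in Tg and 34 UMIs (15.8 CPM) in FMTg, a ratio of -2.73 (95% interval -3.30 to -2.18, second set -2.79), and was detected in 47 of 83 Tg and 22 of 98 FMTg cells. Its near-identical copy Hspa1b, with which reads may be shared, had 315 UMIs (204 CPM) in Tg and 105 UMIs (48.7 CPM) in FMTg, a ratio of -2.07 (95% interval -2.40 to -1.74, second set -1.96). The ratios were -3.38 and -2.79 in the other Epcam-positive barcodes, so they were lower there too. Hsp90aa1 had 1167 and 1204 UMIs and -0.44 (95% interval -0.55 to -0.32, second set -0.33). In the same list of 24 immediate early and stress genes, Klf4, a factor of epithelial differentiation, had 311 and 712 UMIs and 0.71 (95% interval 0.52 to 0.91, second set 0.74), and Socs3 12 and 40 UMIs and 1.25 (95% interval 0.30 to 2.32, second set 0.85). Of its 20 measured genes, 3 were higher and 5 lower (11.8% and 8.82% of all measured genes), with a median of -0.30, and in the second set 2 of 20 were higher and 8 lower (9.95% and 9.3%), with a median of -0.36.

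Nuclear genes of oxidative phosphorylation lay slightly lower, with a median of -0.27 over 72, 0 higher and 2 lower (11.8% and 8.82% of all measured genes), and in the second set 0 of 72 were higher and 3 lower (9.95% and 9.3%), with a median of -0.27. Ndufb8 of complex I had 741 and 677 UMIs and -0.61 (95% interval -0.77 to -0.46, second set -0.61), and Cox8a of complex IV 4333 and 4520 UMIs and -0.42 (95% interval -0.48 to -0.36, second set -0.35). The list median was -0.48 in epithelial barcodes free of leukocyte RNA. Genes of the unfolded protein response had a median of -0.24, with 1 of 18 higher and 3 lower (11.8% and 8.82% of all measured genes). In the second set 0 of 18 were higher and 2 lower (9.95% and 9.3%), with a median of -0.27. The chaperone Calr had 652 and 587 UMIs and -0.63 (95% interval -0.80 to -0.47, second set -0.58), and Sdf2l1 116 and 87 UMIs and -0.90 (95% interval -1.32 to -0.48, second set -0.86). Antioxidant genes had 3 of 20 higher and 2 lower (11.8% and 8.82% of all measured genes) with a median of -0.13, and in the second set 0 of 19 were higher and 3 lower (9.95% and 9.3%), with a median of -0.17. Ribosomal protein genes had a median of 0.16 over 80 and 0.08 in the second set.

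The G2/M list summed to 4293 UMIs (2782 CPM) in Tg and 4622 UMIs (2144 CPM) in FMTg tuft cells. In 67 of 83 Tg and 88 of 98 FMTg cells it held 10 or more. Most of these UMIs were of Tubb4b, a tubulin, and H2afz, a histone variant. In the second set these 2 genes had 3057 and 2387 UMIs and 683 and 528 UMIs. Over all members their ratios were -0.64 and -0.50. Of its 42 genes in the files, 18 had 0 UMIs in the 83 Tg cells, among them Cdk1, Ccnb1, Ccna2 and Plk1, and 1, Nuf2, in the 98 FMTg cells. Mki67, the proliferation antigen, had 1 and 16 UMIs, with 15 of the FMTg UMIs in 1 cell, and was named after its value had been seen. Hmgb2 had 63 and 182 UMIs, with 83 in 1 FMTg cell. The median of 16 measured G2/M genes was 0.47, and 0.01 over 12 in the members with a high tuft gene share. The S phase list had a median of 0.11 over 14 genes and -0.14 over 9.

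Over all genes with at least 50 UMIs, the 10 highest ratios were those of 2010109I03Rik, Clca4a, Nt5e, Gm42047, Guca2a, H2-Aa, Ubd, Dmbt1, Cox6b2 and Lhfpl2. 2010109I03Rik had 4 and 562 UMIs, a ratio of 6.65 (95% interval 5.29 to 8.53, second set 5.94), with its FMTg UMIs in 26 of 98 cells and a maximum of 133 in 1. Nt5e, the surface enzyme CD73, had 9 and 235 UMIs and 4.22 (95% interval 3.27 to 5.37, second set 3.38). Guca2a, the hormone guanylin, had 13 and 232 UMIs and 3.68 (95% interval 2.87 to 4.61, second set 2.99). Gm42047 had 0 UMIs in Tg and 63 in 30 FMTg cells. With Tg set to 3 UMIs over the library it was 15.03-fold higher, a log2 ratio of 3.91, and its 95% interval began at 3.57. Cox6b2 had 5 and 46 UMIs and 2.72 (95% interval 1.39 to 4.41, second set 2.45). Dmbt1 had 10 and 94 UMIs with 74 of the FMTg UMIs in 1 cell, and its ratio of 2.75 was 0.36 in the second set, with an interval of -1.72 to 2.62. Except for H2-Aa, these genes were also higher in FMTg among the other Epcam-positive barcodes, with log2 ratios from 1.5 for Dmbt1 to 4.31 for Gm42047, whereas H2-Aa stood at 0.30.

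The 10 lowest were Ccl6, Ccl9, Lyz2, Klf2, S100a8, S100a6, Hspa1a, Hspa1b, Reg1 and Srgn. Ccl6 had 274 and 1 UMIs, with 258 of the Tg UMIs in 1 cell, and Lyz2, the macrophage lysozyme, 154 and 5 UMIs, with 146 in 1 cell. Of the 9 macrophage and neutrophil markers, Cd68 was at 0 in Tg tuft cells, and C1qa, Csf1r and Adgre1 in FMTg tuft cells. Reg1, a secreted lectin, had 958 and 362 UMIs, with 509 in 1 Tg cell. In the same way, the enteroendocrine markers Chgb and Chga had 407 and 4 UMIs and 216 and 1 UMIs, with 404 and 215 in 1 Tg cell. Apart from Hspa1a and Hspa1b, each of the lowest 10 genes had over 50% of its Tg UMIs in 1 cell. With the highest scrublet doublet scores removed, the ratios were 0.048 for S100a8, 0.79 for S100a6, 1.18 for Srgn and 0.20 for Chgb. These genes were thus no longer lower in FMTg. The value of 1.37 for Chga in that setting rests on the counts set for a library at 0 and gives no direction.

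Enterocyte markers were found in every tuft cell, with 8 of 14 higher in FMTg, 1 lower (11.8% and 8.82% of all measured genes) and a median of 0.70, and in the second set 7 of 14 were higher and 2 lower (9.95% and 9.3%), with a median of 0.56. Apoa4 and Apoa1, apolipoproteins of fat absorption, had 3454 and 16578 UMIs and 4350 and 16707 UMIs, with ratios of 1.78 and 1.46, and ratios in other Epcam-positive barcodes of 1.23 and 0.82. Over all 14 genes the median in those other barcodes was 0.03, with 3 higher and 4 lower (9.68% and 14.2% of all genes there). In the barcodes free of leukocyte RNA it was -0.15, with 3 higher and 5 lower (15.8% and 11.3%). Fabp1, the fatty acid binding protein, had 16337 UMIs (10585 CPM) in Tg and 22443 UMIs (10409 CPM) in FMTg in tuft cells, a ratio of -0.02 (95% interval -0.05 to 0.00, second set 0.09), and was at 4629 and 2881 CPM in the other barcodes, so tuft cells held more of it than those. Summed over the 14 genes, the enterocyte markers ranged from 1519 to 96684 CPM per Tg cell and 606 to 124295 per FMTg cell. The goblet genes Muc2, Fcgbp and Clca1 were scarce, as the rule requires. Zg16, a goblet marker that the rule does not limit, had 307 and 134 UMIs. The part of enterocyte and goblet RNA in the results was not tested.

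**Figure D5:**
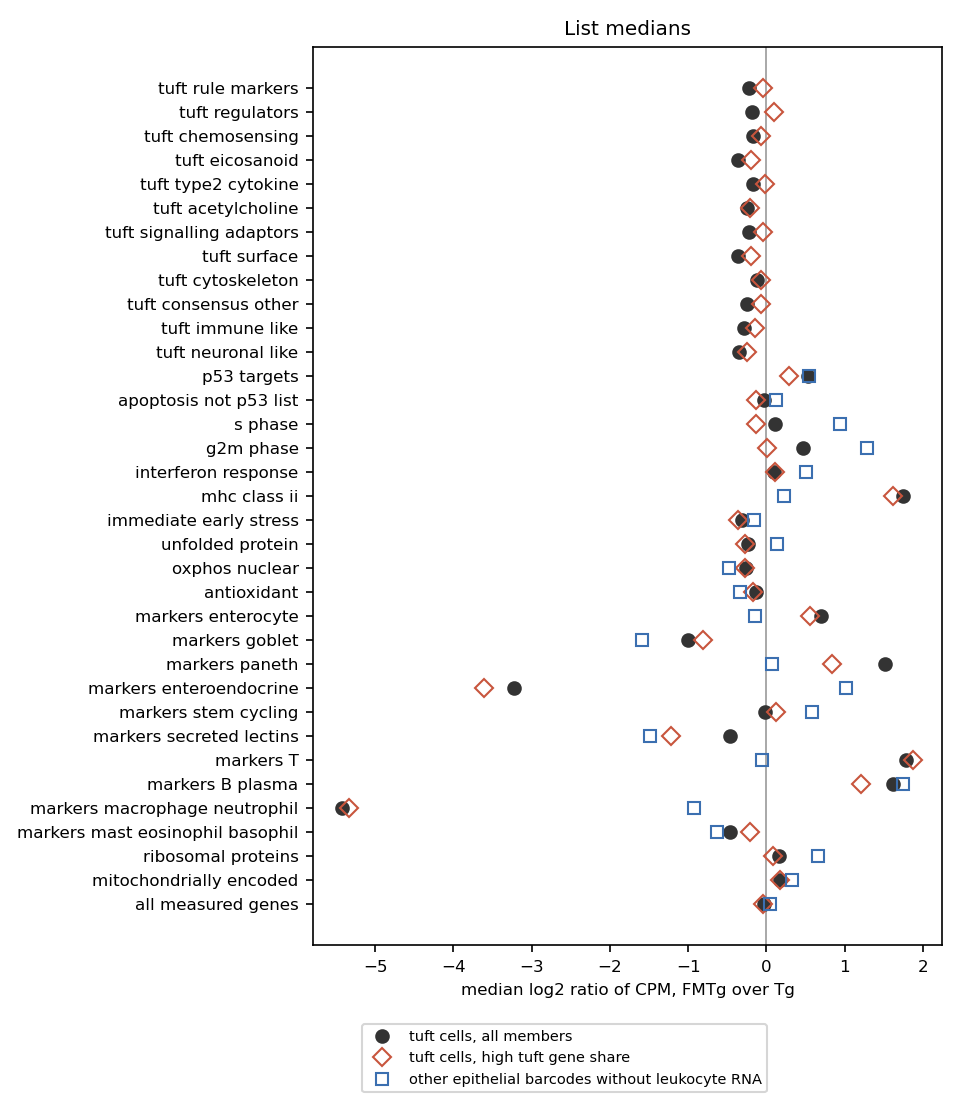
Median log2 ratio of CPM, FMTg over Tg, of every gene list with a measured gene: black points, all tuft cells; red diamonds, tuft cells with a high tuft gene share; blue squares, other epithelial barcodes without leukocyte RNA, drawn for lists that are not tuft lists. p53 targets lay at 0.54, 0.29 and 0.54, MHC class II at 1.75, 1.61 and 0.22, and all measured genes near 0.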

How the data were processed

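Small intestine of 1 Tg and 1 FMTg mouse was measured as UMI counts per gene and cell barcode, deposited by the authors as raw, unnormalized counts. CASAVA 1.8.1, Cell Ranger 3.0 and build mm10 are named per the submitters' processing notes. For the gene annotation, the release was not given in the sources used here. Counts were summed over tuft cells per library, scaled to CPM and compared as log2 ratios with exact conditional binomial intervals of 95%; shares have Clopper-Pearson intervals. A library at 0 was set to 3 counts. Genes with at least 20 UMIs over both libraries counted as measured. With 1 library per group there was no test. The members, gene lists and alternatives were chosen with earlier results of these data known.

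Named genes were the tuft lists, Mdm2, Trp53 and Cdkn1a, the p53 targets with most UMIs (8) and the largest ratios (6), up to 4 of each kind for every other list, the 10 highest and 10 lowest genes with at least 50 UMIs in at least 5 cells, and the 20 highest ratios to other Epcam-positive barcodes; genes outside this rule are said to be. Doublets were kept; removing the highest scrublet scores (0.8% per 1000 barcodes) was an alternative. Cells were thinned to 1000 or 2000 UMIs for shares. Promoters came from RefSeq, GRCm38.p6. The tools were scipy 1.17.1 for intervals, scanpy 1.11.5 for scrublet, edgeR 4.0.16 for TMM factors and DESeq2 1.42.0 for size factors, run with Python 3.11.15 and R 4.3.3, and the ratio code was tested on simulated data. Intervals cover counting error only. Some single genes of the lists are not reported here, though list counts and medians include them.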

Additional observations from a re-analysis of the deposited data

Results flagged for a closer look

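The median log2 ratio of the MHC class II genes was 1.75 in tuft cells, whereas it was -0.05 in other Epcam-positive barcodes. There, 0 of 8 genes were higher and 0 lower (9.68% and 14.2% of all genes), and the list summed to 2060 CPM in Tg and 2203 CPM in FMTg. The other barcodes were thus nearly level and showed no opposite direction. The difference between the classes was not tested. In the Epcam-positive barcodes free of Ptprc and leukocyte marker UMIs the median was 0.22, so against that class, which was chosen after the data had been seen, the direction was the same and the size differed.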

How the results depend on the processing

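No paired analysis was possible because each group is 1 library. The p53 target median of 0.54 ranged from 0.29 to 0.73 and the tuft gene median of -0.25 from -0.29 to -0.07 over all alternatives, and neither changed sign. The limit on tuft gene share, alone or with the leukocyte RNA limit, was chosen after seeing the data. It gave the lowest p53 median, with 11 targets higher, and 12 with the leukocyte limit added, against 22. Lower tuft genes, 3 as reported, were then 0 and 1, in sets chosen by the share of these same genes. With that limit alone the ratios of Kitl (-0.23), Krt19 (-2.33), Tpx2 (-0.23), Gsta1 (-2.04), Gpx2 (-0.29) and Cd79a (-0.81) changed sign. With both limits those of Kitl (-2.21), Krt19 (-2.34), Hmgb2 (-0.12), Cenpe (-0.21), Tpx2 (-0.21), Gsta1 (-0.80), Gpx2 (-0.34), Gzma (-0.85), Ccl5 (-0.85), Gzmb (-0.70), Cd79a (-1.21) and the T cell marker median (-0.85) did. Under the limit on tuft gene share alone, Tpx2 had 1 and 1 UMIs and Cenpe 1 and 2, too few to give a direction. Tppp3 had 0 FMTg UMIs there, so its value with both limits (0.37) rests on the 3 counts set for a library at 0. The leukocyte limit alone turned the T cell marker median (-0.83), Tppp3 (0.13), Gzma (-1.12), Ccl5 (-0.55), Gzmb (-0.65) and Cd79a (-1.45). Removing scrublet doublets left 63 Tg and 71 FMTg cells and turned Il17ra (0.31), S100a8 (0.048), S100a6 (0.79), Srgn (1.18), Gsta1 (-0.21), Chgb (0.20), Reg4 (0.79) and Gzmb (-0.42), with 0 tuft genes higher and 1 lower. The values of Chga (1.37) and S100a9 (0.37) in that setting rest on the 3 counts set for a library at 0 and give no direction. Equal weight per cell turned Krt19 (-0.10), Mcm4 (-1.41) and Ifi44 (0.078), with 2 tuft genes higher and 0 lower. A marker sum of at least 3 UMIs turned Reg1 (0.32). Lower p53 targets were 1, not 2, under doublet removal, TMM, DESeq2 size factors, the total without abundant and mitochondrial genes, equal weight and a minimum of 50 UMIs; the total without abundant genes also gave 1 lower tuft gene. The minimum of 50 UMIs, under which fewer genes are measured, left 565 genes higher and 382 lower. The tuft share of Epcam-positive barcodes, 2.87% in Tg and 2.88% in FMTg, was 2.20% in Tg without a mitochondrial limit, 3.52% in Tg and 5.91% in FMTg with a limit of 25%, 2.21% in FMTg without doublets, 5.37% and 3.85% with the leukocyte limit, and 3.87% and 4.40% when cells were thinned to 1000 UMIs with at least 1 marker UMI. Of the Cdkn1a and Mdm2 detection shares at fixed depth, 3 of 4 moved by more than their counting interval with 2000 in place of 1000 UMIs: Cdkn1a to 65.8% and 79.6% and Mdm2 to 15.2% in Tg. The cause of these changes was not tested.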
